A study of Homo sapiens with 12 samples.

Results

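The human cell line NCI-H295R was established from a carcinoma of the adrenal cortex and still makes steroid hormones. This account describes the transcriptome of these cells at rest, under DMSO alone, from the 3 libraries that the labels give as vehicle-treated baseline, of 12 libraries in the series. The cells had been kept in 6-well plates for 96 h with DMSO, the solvent in which the drugs of the other groups were given, in a medium with Nu serum and an insulin, transferrin and selenium supplement. Polyadenylated RNA was sequenced from 3 cultures that the labels call biological replicates of this line. The other groups of the series received an EZH2 inhibitor, an inhibitor of the binding of CBP to β-catenin, or forskolin, and no value of theirs enters here. No comparison between treatments was made, so no test was run, and every value is given for 3 libraries or as a mean ± SD (n = 3).

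The adrenal cortex makes aldosterone in its outer zone, cortisol in its middle zone and androgens in its inner zone. All of them come from cholesterol, which STAR carries into the mitochondrion and CYP11A1 cleaves, and a short chain of cytochrome P450 enzymes and dehydrogenases then decides which hormone is made. The nuclear receptor NR5A1 (SF-1) switches these genes on, ACTH raises them through cAMP, and angiotensin II and potassium drive aldosterone. In Wnt signalling, secreted ligands stop the destruction of β-catenin, which then enters the nucleus and works with TCF and LEF factors. In the normal cortex this pathway is known for its role in the outer zone, and in adrenocortical carcinoma it is often active.

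Levels are given on a pair of scales. CPM, a gene's counts per 1000000 counts of the library, follow the amount of RNA sequence. TPM, transcripts per 1000000 transcripts, first divide each count by the gene's length, as deposited in the same table, and are the scale used to set one gene beside another. That length is a single annotated value per gene, and the lengths of the transcripts in these cells were not measured. Ranks and ratios between genes on this scale therefore depend on the annotated length. A gene was counted as expressed at 1 TPM or more in all 3 libraries and as silent at 0 counts in all 3. In RNA from a whole culture, fewer cells that use a gene and less RNA per cell cannot be told apart.

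The libraries held 21.7, 27.0 and 21.0 megacounts (1000000 counts each). A gene at 0 counts in a single library could still have stood at up to 3 counts, or 0.111 to 0.143 CPM. This limit covers counting error only. Each pair of libraries differed by more than counting noise, and the chi-square divided by its degrees of freedom was 2.71 to 7.34. The median gene of at least 10 CPM differed between libraries by 0.0577 to 0.0820 on the log2 scale. Replicate 1 stood somewhat apart: its long genes and its mitochondrially encoded genes were higher than in the other two, as described at the end. Mitochondrially encoded genes took 3.22%, 2.64% and 2.37% of counts, with copies of these genes on nuclear chromosomes left out.

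Of 60617 annotated genes, 17519 (28.9%) were expressed and 27441 (45.3%) were silent. Among 19922 protein-coding genes, 12912 (64.8%) were expressed, 2673 (13.4%) were silent and 4337 lay between. Their median level was 7.06 TPM over all of them and 21.1 TPM over the expressed ones. A level of 10 TPM in every library was passed by 8816 protein-coding genes, 100 TPM by 1553 and 1000 TPM by 60. The counts were spread over many genes: the 10 highest took 3.61% ± 0.117 of counts, the 100 highest 13.98% ± 0.209 and the 1000 highest 43.3% ± 0.0905 (SD, n = 3). It took 1391 genes to hold 50% of the counts. For every list below, the counts of expressed and silent members are to be read beside the 64.8% and 13.4% of all protein-coding genes. The lists were chosen with earlier results of these data known, so a difference from these shares describes a list and is not independent evidence.

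The most abundant nuclear gene by CPM was DLK1, an imprinted gene for a membrane-bound and shed protein of fetal adrenal and other endocrine tissue. DLK1 (ENSG00000185559) stood at 4489.8, 4678 and 4682 CPM in replicates 1 to 3, and the libraries differed by little against its level. Of all genes only MT-CO1, the mitochondrially encoded cytochrome oxidase subunit, was higher, at 6547, 5165 and 4748 CPM, with replicate 1 the highest. PKM, which encodes the last enzyme of glycolysis, followed at 3844 ± 194 CPM.

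The fetal growth factor gene IGF2, known for high levels in adrenocortical carcinoma, came next at 3980.1, 3861 and 3565 CPM. IGF2 lies on chromosome 11 from 2129112 to 2149603 (minus strand, hg38, GENCODE 29). At the same place the annotation lists ENSG00000284779 (3025 ± 173 CPM), the read-through gene INS-IGF2 (567 CPM) and the RNA gene ENSG00000240801 (344 CPM). These annotations overlap, so their counts cannot be assigned to one of them with certainty. The 4 together held 8106, 7846 and 7261 CPM in replicates 1 to 3, more than any single gene in each library. IGF2 itself took 49.1% of that sum and ENSG00000284779 39.1%, while INS, the insulin gene beside it, had 0 counts.

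Many of the other genes in the top 25 by CPM serve growth, translation and the cytoskeleton of dividing cells. They included EEF1A1, a translation elongation factor (3367 ± 189.9 CPM), the folding enzyme PPIA (2832 ± 147 CPM), the glycolytic enzyme GAPDH (2763 ± 77.8 CPM) and the tubulin gene TUBA1B (2628 ± 110.1 CPM). SPARC, a secreted matrix protein, stood at 1947 ± 58.5 CPM, FSCN1, an actin-bundling protein, at 1702 ± 17.9 CPM, and PSAP, the precursor of lysosomal saposins, at 1629 ± 68.7 CPM. The 25 also held a gene of adrenal function: SCARB1, the receptor that takes up cholesterol esters from HDL, at 1821, 1943 and 1799.9 CPM. Of the 25, 8 were mitochondrially encoded, and in the plot of the 25 highest genes all of these had their highest value in replicate 1.

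**Figure D1:**
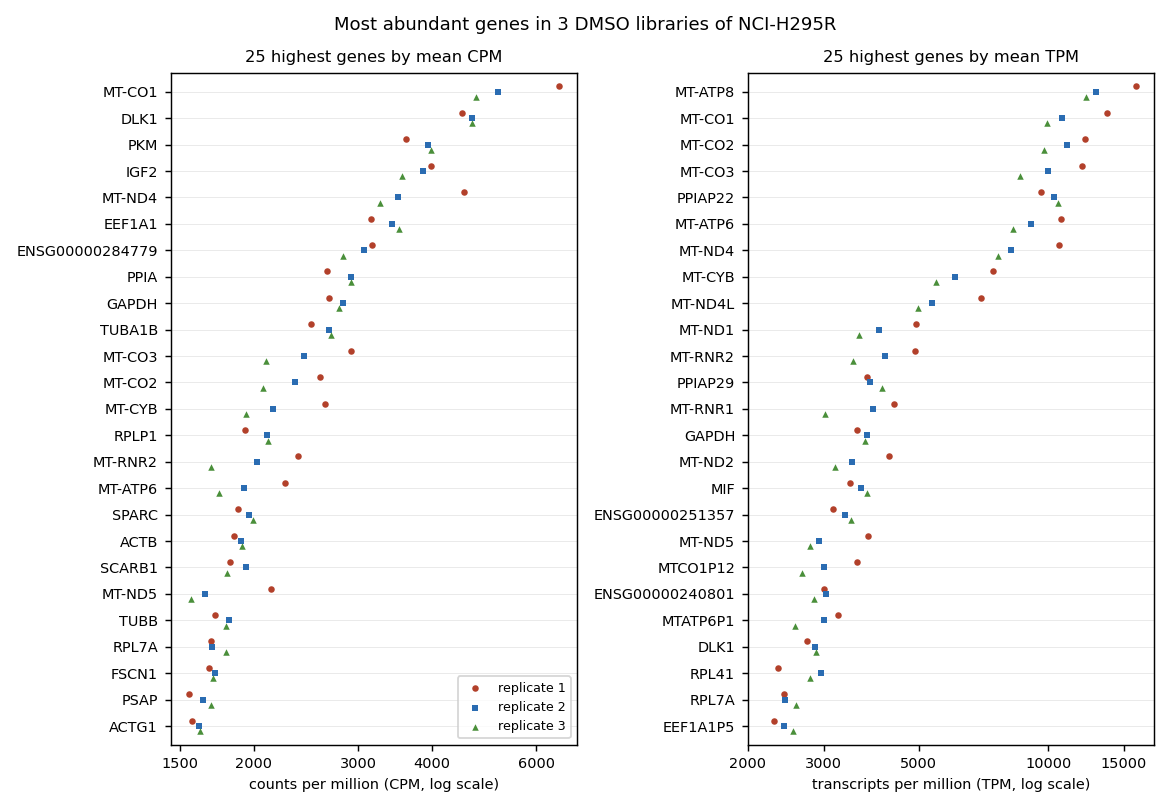
The 25 highest genes by mean CPM (left, log axis) and by mean TPM (right, log axis), with 1 symbol per DMSO library. DLK1, PKM and IGF2 are the highest nuclear genes by CPM, and mitochondrially encoded genes, marked MT-, lie highest in replicate 1 on both scales.

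Dividing by length changed the picture at the top. The highest values per length were MT-ATP8 (13714 ± 2016 TPM), MT-CO1 (11449 ± 1958 TPM) and other mitochondrially encoded genes, which made up 13 of the first 25. This order depends on how short genes are treated. With an effective length (Length minus 200 bases, at least 50), MT-ATP8 stood at 44052 TPM and MT-ND4L rose from 5769.9 to 13705 TPM. MT-CO1 came to 10206 TPM, at rank 7 in place of 2. MT-ATP8 (8366 to 8572) also overlaps MT-ATP6 (8527 to 9207), and MT-ND4L (10470 to 10766) overlaps MT-ND4 (10760 to 12137). Reads may therefore be shared within these pairs. The highest nuclear protein-coding genes per length were GAPDH (3710.0 ± 105 TPM), MIF (3639.6 ± 176 TPM), a secreted cytokine and tautomerase, and DLK1 (2831 ± 68.6 TPM), with ENSG00000251357, which overlaps MIF, at 3330.2 TPM. By effective length MIF (3892 TPM) lay above GAPDH (3143 TPM). The 100 highest genes by CPM and the 100 highest by TPM had 54 genes in common, and their median lengths were 3904 and 1381 bases. FARP1, annotated with 36228 bases, fell from rank 50 by CPM to rank 2054 by TPM, and the matrix gene COL4A2 from rank 94 to 1455. In the other direction, MIR3654, 56 bases long, rose from rank 7325 to rank 44. For a gene this short, TPM divides any read of a longer overlapping transcript by a very small length, so it is not a measure of the small RNA.

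Copies of abundant genes also entered the list by TPM. Pseudogenes were 17 of the 100 highest genes by TPM and 3 of the 100 highest by CPM. PPIAP22, a processed copy of PPIA on another chromosome, was listed at 10162 TPM against 2056 TPM for PPIA, and EEF1A1P5 was listed beside EEF1A1 at 1047 ± 53.4 CPM. Of the non-zero values of processed pseudogenes, 63.4% were not whole numbers, against 28.4% for protein-coding genes. The counts of near-identical genes are therefore uncertain, and the sums are better defined: PPIA with its 2 listed copies held 5010.5 CPM and EEF1A1 with 2 copies 5147 CPM. The same holds for MT-CO1 and MTCO1P12, a pseudogene copy on chromosome 1. MTCO1P12 was listed at 1480 CPM, or 21.2% of the 6967 CPM of the pair.

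Markers of the labelled cell type were present. All 9 defining adrenocortical markers were expressed (STAR, CYP11A1, CYP17A1, CYP21A2, HSD3B2, NR5A1, INHA, MC2R and SCARB1), and together they held 3824 to 3984 CPM. SCARB1 alone held 1799.9 to 1943 CPM of that sum. In a wider list of adrenal identity genes, 20 of 22 were expressed with a median of 56.9 TPM, against 64.8% and 7.06 TPM over all protein-coding genes. This list was chosen with earlier results of these data known, so the excess is not independent evidence of cell type. The members at the low end were AS3MT (0.669 ± 0.187 TPM) and CABYR (0.277 ± 0.112 TPM). INHA, the inhibin alpha subunit used as a marker of cortical tumours, stood at 18.8 ± 0.613 TPM, and CCN3, a secreted matricellular protein, at 560.1 ± 20.9 TPM. Of the 23 entries of the wider list, 22 had a match, and NOV, an older symbol of CCN3, had none. GSTA1, a glutathione transferase of the adrenal cortex, stood at 201 ± 6.82 TPM.

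Genes of the first steps of steroid synthesis were among the well expressed genes of these cells. STAR (ENSG00000147465) was at 574, 558 and 575 TPM, the highest of 28 steroid genes listed, and its 3 values lay above those of every other member. CYP11A1, the side-chain cleavage enzyme, was at 288, 288 and 309 TPM. Its electron donors in the mitochondrion, the reductase FDXR and the ferredoxin FDX1, stood at 376 ± 13.5 TPM and 135 ± 6.93 TPM. POR, the reductase that serves the P450 enzymes of the endoplasmic reticulum, stood at 287 ± 8.87 TPM. The ranges of CYP11A1 and POR overlapped, as did those of FDXR and CYP21A2.

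The next enzymes were unequal. CYP21A2, the hydroxylase needed for both cortisol and aldosterone, was at 337, 375 and 351 TPM. HSD3B2, the dehydrogenase without which no active steroid is made, was at 101, 116 and 119 TPM, lowest in replicate 1. CYP17A1, the hydroxylase and lyase on the way to cortisol and androgens, was at 57.6, 62.0 and 62.8 TPM, below HSD3B2 in every library. CYP21A2 lies on chromosome 6 (32038265 to 32041670, plus strand, hg38, GENCODE 29) beside a near-identical pseudogene, CYP21A1P, that was listed at 76.8 CPM against 311 CPM, so the split between them is uncertain.

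The genes for the last steps of cortisol and aldosterone were near the bottom of the list. CYP11B2, the aldosterone synthase, had 20.2, 44.8 and 36.2 counts, or 1.02, 1.81 and 1.89 TPM, with replicate 1 the lowest. CYP11B1, the enzyme that makes cortisol, had 9.75, 12.2 and 8.75 counts, or 0.343, 0.347 and 0.319 TPM. Both genes are close copies of each other, and their fractional counts leave the split uncertain. The TPM of CYP11B2 was 4.71 ± 1.55 times that of CYP11B1 (SD, n = 3). HSD3B1, the copy of HSD3B2 known from placenta, stood at 0.608 ± 0.0840 TPM, and HSD3B2 was 155 to 226 times higher per length within a library.

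The androgen and sulfation branch was present. SULT2A1, which sulfates the androgen precursor DHEA, was at 117, 128 and 135 TPM, in the same range as FDX1. PAPSS1 and PAPSS2, which make the sulfate donor, were at 53.9 and 15.4 TPM, and CYB5A, which helps the lyase reaction of CYP17A1, at 10.2 ± 0.522 TPM. AKR1C3, which makes testosterone, stood at 41.5 ± 1.21 TPM, far above its relatives AKR1C2 (3.84 TPM) and AKR1C1 (1.59 TPM), though these genes are close in sequence and may share reads. CYP19A1, the aromatase, stood at 3.31 ± 0.0794 TPM, and SRD5A2, a reductase of genital tissues, at 0, 1 and 1 counts. In all, 23 of 28 steroid genes were expressed, 0 were silent, and the median was 17.8 TPM. In order of level, 18 of 27 pairs of neighbours had ranges that did not overlap.

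**Figure D2:**
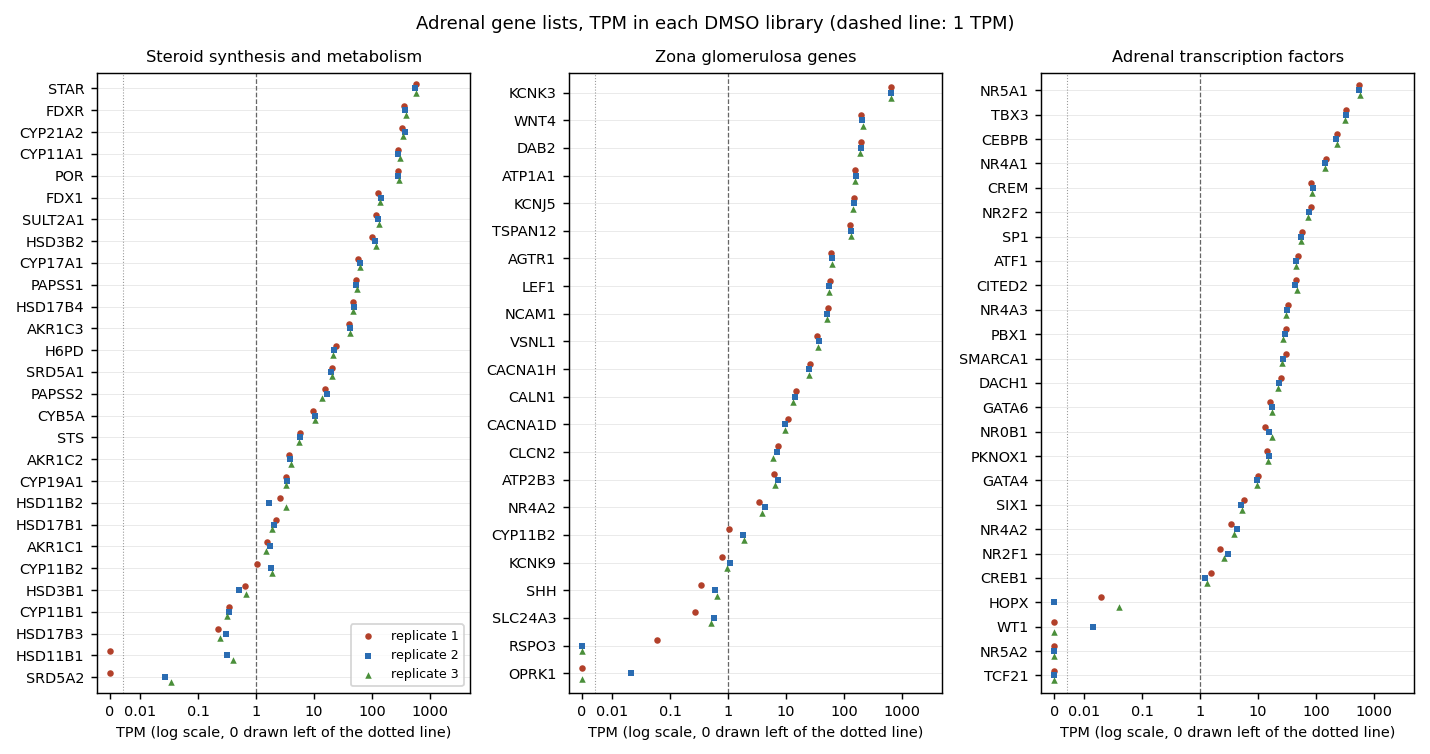
TPM of each member of the steroid, zona glomerulosa and transcription factor lists on a log axis, with 1 symbol per DMSO library, ordered by mean. STAR, KCNK3 and NR5A1 head their lists, and CYP11B2 and CYP11B1 lie at the low end of the steroid list near the dashed line at 1 TPM.

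The promoters of 4 genes with very different levels are shown because their CpG content and their levels differ. They are RefSeq sequences on GRCh38.p14, from 250 bases before to 50 bases after the annotated start, 5′ to 3′ on the gene's strand, and capitals mark every CG (CpG) pair. DNA methylation was not measured, so nothing about its state follows.
CYP11A1, chr15:74367597-74367896, minus strand, 295.1 TPM: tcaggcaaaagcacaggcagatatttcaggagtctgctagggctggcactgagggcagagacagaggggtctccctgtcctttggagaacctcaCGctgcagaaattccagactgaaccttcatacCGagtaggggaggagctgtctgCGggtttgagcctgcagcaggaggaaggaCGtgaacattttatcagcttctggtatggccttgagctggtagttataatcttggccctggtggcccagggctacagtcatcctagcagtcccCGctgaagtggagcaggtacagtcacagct
CYP17A1, chr10:102837364-102837663, minus strand, 60.8 TPM: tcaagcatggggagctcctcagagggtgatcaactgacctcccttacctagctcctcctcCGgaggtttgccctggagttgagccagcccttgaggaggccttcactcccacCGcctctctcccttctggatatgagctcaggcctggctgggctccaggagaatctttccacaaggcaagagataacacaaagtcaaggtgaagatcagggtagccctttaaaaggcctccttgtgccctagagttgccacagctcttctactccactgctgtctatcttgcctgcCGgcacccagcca
WNT4, chr1:22143048-22143347, minus strand, 202 TPM: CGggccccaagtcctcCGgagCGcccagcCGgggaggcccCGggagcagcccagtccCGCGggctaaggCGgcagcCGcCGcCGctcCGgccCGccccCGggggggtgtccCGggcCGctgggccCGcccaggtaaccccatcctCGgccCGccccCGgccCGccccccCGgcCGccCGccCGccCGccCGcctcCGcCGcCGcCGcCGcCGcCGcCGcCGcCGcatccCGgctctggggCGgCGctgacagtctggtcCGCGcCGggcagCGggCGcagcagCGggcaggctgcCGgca
GSTP1, chr11:67583562-67583861, plus strand, 0 counts: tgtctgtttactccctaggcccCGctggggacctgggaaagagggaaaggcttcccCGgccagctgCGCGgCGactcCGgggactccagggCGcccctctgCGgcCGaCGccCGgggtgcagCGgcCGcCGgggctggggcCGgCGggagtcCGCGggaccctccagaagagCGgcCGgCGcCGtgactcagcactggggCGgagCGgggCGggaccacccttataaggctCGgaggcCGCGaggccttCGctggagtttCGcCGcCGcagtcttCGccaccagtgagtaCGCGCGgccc
The steroid genes CYP11A1 and CYP17A1 held 5 and 3 CpG in these windows, the Wnt ligand gene WNT4 47 and the glutathione transferase gene GSTP1 36. The median over 27305 RefSeq promoters of the same length was 14, and 12.5% of them held as many as GSTP1 or more and 34.4% as few as CYP11A1 or fewer. Among these 4, a promoter with fewer CpG than the median stood before a gene at 295.1 TPM. A promoter with more CpG than the median stood before a gene with 0 counts in all 3 libraries. The genes were picked for these differences, so no relation of CpG content to level follows. A count of CpG by level over all genes was not made, because 76.9% of protein-coding symbols matched a promoter, under the 80% needed.

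Cholesterol for this pathway can be taken up, made or released from stored esters, and genes of all these routes were expressed. Of 33 genes, 32 were expressed, with a median of 56.9 TPM. The HDL receptor SCARB1 was the highest at 757, 807 and 749 TPM. In the synthesis route, FDPS, which makes farnesyl pyrophosphate, was at 152 ± 8.03 TPM. SQLE, an early enzyme of the sterol branch, was lower at 23.4 ± 2.05 TPM. The sensor SCAP stood at 154 ± 4.47 TPM. The esterifying enzyme was SOAT1 (129 ± 1.38 TPM), while its relative SOAT2 had 0 counts in every library. The efflux genes ABCA1 (3.17 TPM) and ABCG1 (2.99 TPM) and APOE (2.44 TPM) were the lowest expressed members.

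Receptors through which hormones reach the cortex were mostly low or silent. Of 35 listed, 12 were expressed and 7 were silent, beside 64.8% and 13.4% of all protein-coding genes. Their median was 0.152 TPM, against 7.06 TPM over all protein-coding genes. The highest was AGTR1, the angiotensin II receptor of the aldosterone-making zone, at 58.7, 61.8 and 62.8 TPM. The ACTH receptor MC2R was at 2.70, 2.90 and 3.61 TPM and its accessory protein MRAP at 5.50, 7.16 and 5.801 TPM, and the 3 values of AGTR1 lay above all of these. IGF1R, through which IGF2 signals, stood at 41.9 ± 2.87 TPM and INSR at 23.2 ± 1.46 TPM. GNRHR, the receptor of a pituitary-regulating hormone and not a gene of normal cortex function, was at 16.8, 19.2 and 16.3 TPM. Endothelin receptors EDNRA (11.4, 10.2 and 11.5 TPM) and EDNRB (8.32 TPM) were expressed as well. The gonadotropin receptor genes LHCGR and FSHR, the other angiotensin receptor AGTR2, AVPR1B, VIPR2, MC3R and MC4R had 0 counts in all 3 libraries.

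Among transcription factors of adrenal development and function, NR5A1 was the highest at 553, 558 and 566 TPM, and its values did not overlap those of any other of the 25 factors. NR0B1 (DAX-1), a repressor that binds NR5A1, was at 13.4, 15.1 and 17.1 TPM, so NR5A1 was 37.1 ± 4.12 times higher per length (SD, n = 3). TBX3, a T-box repressor, stood at 327 ± 8.06 TPM, and CEBPB at 228 ± 4.83 TPM. The orphan receptors of the immediate response were at 145 ± 4.07 TPM for NR4A1, 31.51 TPM for NR4A3 and 3.84 TPM for NR4A2, with no overlap between them. GATA6, the GATA factor of the adult cortex, was at 16.9 ± 0.868 TPM and GATA4, which is more typical of gonad and fetal adrenal, at 9.68 ± 0.277 TPM. NR5A2, the liver and gonad relative of NR5A1, and TCF21, a capsule factor, were silent, and WT1 had 0, 1 and 0 counts. Over the list, 21 of 25 were expressed with a median of 23.4 TPM.

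Genes known from the zona glomerulosa, the aldosterone-making zone, ranged from KCNK3 to 5 genes that were neither expressed nor silent. Of 22 listed, 17 were expressed, with a median of 19.6 TPM, beside 64.8% and 7.06 TPM over all protein-coding genes. The background potassium channel KCNK3 led at 662, 662 and 642 TPM, and the potassium channel KCNJ5 stood at 147 ± 2.54 TPM. DAB2, an adaptor protein used as a zonal marker, was at 194 ± 5.90 TPM, in the same range as WNT4. Of the calcium channel genes, CACNA1H was at 25.1 ± 0.911 TPM and CACNA1D at 10.1 ± 0.768 TPM. The related potassium channel KCNK9 was at 0.934 ± 0.143 TPM and SHH, a signal from subcapsular cells, at 0.525 ± 0.163 TPM, so both missed the level counted as expressed.

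Wnt ligand genes were few but a small number of them were high. Of 25 ligand and export genes, 10 were expressed and 2 had 0 counts. WNT4, the ligand of the outer cortex and of female gonad development, was at 195, 201 and 210.0 TPM. WNT11, best known for signalling that does not need β-catenin, was at 163, 164 and 162 TPM, below WNT4 in every library. WNT5A (16.3 TPM) and WNT3 (11.8 TPM) followed at a lower level. The export proteins WLS and PORCN, which every ligand needs, stood at 118 ± 3.15 TPM and 12.7 ± 1.25 TPM. The canonical ligands WNT1 and WNT3A had 1, 2 and 0 counts and 2, 2 and 2 counts. Of the R-spondins, which amplify the signal, RSPO4 was at 4.51 ± 0.636 TPM, RSPO3, the capsule signal of the adrenal, had 2, 0 and 0 counts and RSPO1 had none.

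Of 21 receptor genes, 19 were expressed, and their median of 7.88 TPM was close to the 7.06 TPM of all protein-coding genes, of which 64.8% were expressed. TSPAN12, a membrane partner of FZD4, led at 129, 130.3 and 135 TPM, although FZD4 (4.04 TPM) and the ligand of that pair, NDP (7.73 TPM), were low. FZD7 was the highest Frizzled at 114, 111 and 109 TPM, above FZD6 (45.0 TPM) and FZD2 (37.0 TPM) in every library. The co-receptors LRP5 and LRP6 stood at 44.2 ± 0.511 TPM and 30.6 ± 1.98 TPM. LGR5 and LGR4, the receptors of R-spondins, overlapped at 7.88 ± 0.291 TPM and 7.82 ± 0.541 TPM, and LGR6 had 1, 2 and 0 counts.

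Inhibitors outside the cell were unequal. APCDD1, a membrane protein that binds ligands and receptors, was at 342, 342 and 342 TPM, and no other of the 18 inhibitors reached 100 TPM. NOTUM, the enzyme that removes the lipid of Wnt ligands, was at 48.1, 44.7 and 50.8 TPM. Of the Dickkopf genes, DKK2 (24.3 TPM), DKK3 (12.1 TPM) and DKK1 (10.5 TPM) were expressed and DKK4 was at 0.523 ± 0.475 TPM. Of the Frizzled-related proteins, SFRP1 (10.9 TPM) and SFRP4 (9.54 TPM) were expressed, SFRP2 had 0, 1 and 0 counts and SFRP5 had none.

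All 21 cytoplasmic components were expressed, and CTNNB1, which encodes β-catenin, led them at 346, 357 and 356 TPM. The members of its destruction complex were lower per length: GSK3A at 102 ± 1.36 TPM, GSK3B at 44.9 ± 0.786 TPM, APC at 28.4 ± 1.82 TPM and AXIN1 at 21.2 ± 0.703 TPM. CTNNB1 was 12.4 ± 0.971 times APC. JUP, the relative of β-catenin at cell junctions, stood at 14.2 ± 0.660 TPM. Of the Dishevelled genes DVL3 (81.7 TPM) was above DVL2 (62.0 TPM) and DVL1 (28.2 TPM) without overlap.

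Of 17 nuclear components, 16 were expressed. Among the 4 DNA-binding partners of β-catenin, LEF1 was the highest at 58.2, 55.9 and 54.9 TPM. TCF7 followed at 25.9, 26.0 and 25.9 TPM, then TCF7L2 at 6.63 ± 0.177 TPM, and TCF7L1, often a repressor, at 0.501, 0.349 and 0.622 TPM. These 4 did not overlap in any library, and LEF1 was 2.17 ± 0.0692 times TCF7 (SD, n = 3). The corepressor genes TLE5 (329 ± 9.18 TPM) and TLE1 (265 ± 7.53 TPM) headed the list. The coactivators CREBBP and EP300 stood at 25.4 ± 2.12 TPM and 18.9 ± 1.22 TPM, with overlapping ranges for EP300 and its neighbour BCL9L.

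Genes commonly listed as Wnt targets covered the whole range at rest. Of 28, 24 were expressed, with a median of 10.1 TPM. The feedback inhibitors AXIN2, NKD1 and ZNRF3 stood at 66.9, 61.2 and 63.0 TPM, 71.4, 64.7 and 62.0 TPM and 73.4, 71.1 and 66.4 TPM, with overlapping ranges. BIRC5, an apoptosis inhibitor that is also a cell-cycle gene, was the highest at 188 ± 7.98 TPM, and TNFRSF19 (TROY) stood at 165 ± 4.73 TPM. MYC was at 41.3 ± 1.05 TPM. CCND1, the cyclin D1 gene most often named as a target, was at 1.53, 1.53 and 1.46 TPM, and the other D cyclins were higher: CCND3 at 61.5 ± 1.47 TPM and CCND2 at 20.5 ± 0.847 TPM. CCND3 was 39.0 to 42.6 times CCND1 within a library. The intestinal and mesodermal targets CDX1 and TBXT had 0 counts.

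**Figure D3:**
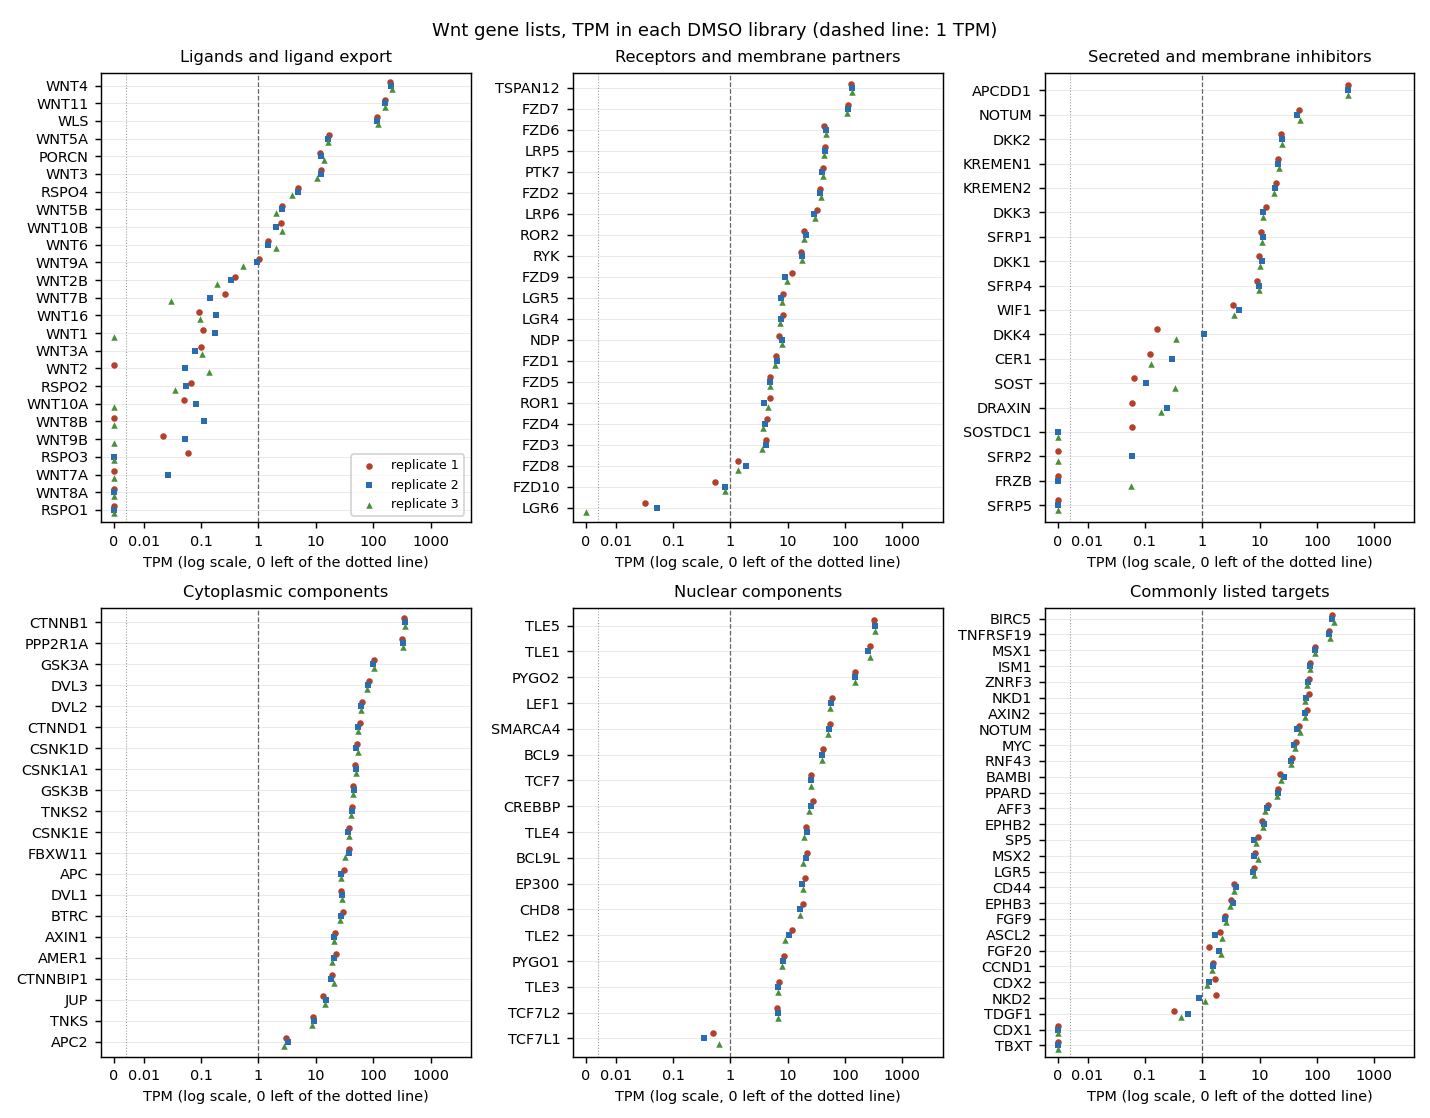
TPM of each member of the 6 Wnt lists on a log axis, with 1 symbol per DMSO library, ordered by mean; values of 0 are drawn left of the dotted line and the dashed line marks 1 TPM. The cytoplasmic list lies wholly above 1 TPM, while most ligands lie below it with WNT4 and WNT11 above 100 TPM.

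Among 87 genes of secreted growth factors, 46 were expressed and 7 passed 100 TPM in every library. IGF2 was far the highest at 2045, 1983 and 1836 TPM, followed without overlap by CCN3 (560.1 ± 20.9 TPM), HDGF, a nuclear protein that is also released (498 ± 6.65 TPM), and BMP4, a morphogen of the TGF-β family (161 ± 2.79 TPM). TGFB1 stood at 151 ± 2.34 TPM, VEGFB at 132 ± 2.53 TPM and PDGFD at 124 ± 3.72 TPM. The neurotrophic factor NRTN was at 49.3 ± 5.66 TPM. INS, NODAL, BMP3, BMP5, FGF5, CSF2 and ANGPT2 had 0 counts.

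Of 56 hormone and peptide genes, 15 were expressed and 14 were silent. VGF, a precursor of neuroendocrine peptides, stood at 502, 547 and 528 TPM, and PCSK1N, an inhibitor of prohormone cleavage known also as proSAAS, at 215, 214 and 239.5 TPM. CHGB was at 35.0 ± 0.7005 TPM and CHGA, its relative and the standard chromaffin marker, at 4.27 ± 0.415 TPM. POMC, which encodes the ACTH precursor, was at 15.1, 16.9 and 16.6 TPM, and NMU, a neuropeptide, at 54.0 ± 0.354 TPM. CRH, SST, TRH, NPPA, NPPB and LEP were among the silent members.

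The matrix genes were led by SPARC at 1304, 1359 and 1386 TPM. The basement membrane genes followed at a lower level, COL15A1 at 233 ± 4.69 TPM, LAMB1 at 223 ± 4.26 TPM, LAMC1 at 157 ± 7.15 TPM and COL4A2 at 126 ± 0.963 TPM, which was 1.78 ± 0.0814 times COL4A1 per length. Of 62 matrix genes, 40 were expressed, near the 64.8% of all protein-coding genes. ELN and LOX were silent, beside 13.4% of all protein-coding genes. Among binding proteins and inhibitors, 31 of 45 were expressed, again near 64.8%. IGFBP7, which binds IGF, stood at 826 ± 64.5 TPM, the metalloproteinase inhibitor TIMP3 at 433 ± 10.9 TPM and the protease inhibitor SERPINA5 at 382 ± 12.2 TPM.

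Cytokines and chemokines were low, with 24 of 51 at 0 counts, among them IL6, TNF, IFNG, CXCL10 and CCL5. MIF stood far above the rest at 3449, 3673 and 3797 TPM. It overlaps ENSG00000251357, and how reads of the pair were divided was not given in the sources used here. Together they held 1641 ± 79.6 CPM. The membrane-bound chemokine CX3CL1 was at 50.3 ± 1.12 TPM, CXCL14 at 24.7 ± 1.80 TPM and CCL22 at 18.98 ± 0.630 TPM.

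Redox genes were high with a single silent member. FTL and FTH1, the ferritin chains, stood at 1889 ± 128 TPM and 1309 ± 21.4 TPM, and PRDX2, a peroxiredoxin, at 1155 ± 93.3 TPM. GPX4, the enzyme that reduces lipid peroxides, was at 315 ± 13.3 TPM. GSTP1, a glutathione transferase used widely in other tissues, had 0 counts in each of the 3 libraries, and the other 23 of 24 redox genes were expressed.

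The lists of markers of other cell types had medians below the 7.06 TPM of all protein-coding genes, though single members stood well above it. Of the 19 leukocyte genes, 4 were expressed and their sum was 42.3 to 43.7 CPM, with PTPRC, CD3D, CD3E and MS4A1 at 0. The expressed members were CD79A (21.4 ± 1.40 TPM), a B-cell receptor component, LCP1 (18.3 ± 0.378 TPM), an actin bundler found in many tumours, CD14 (2.44 ± 0.913 TPM) and NKG7 (1.79 ± 0.480 TPM). Of 13 endothelial genes 1 was expressed, EGFL7 (81.5 ± 5.35 TPM), a secreted protein, at a level above that of CYP17A1. Of 16 hepatocyte genes 2 were expressed, APOA1 (6.18 ± 2.01 TPM) and CYP2E1 (1.32 ± 0.153 TPM), and of 16 epithelial genes 3, EPCAM (14.7 ± 1.10 TPM), KRT18 (6.49 ± 0.621 TPM) and CLDN4 (2.07 ± 0.134 TPM). Of 13 glial genes 2 were expressed, the glutamate transporter gene SLC1A3 (14.7 ± 0.369 TPM) and ALDH1L1 (10.6 ± 0.220 TPM). Of 13 erythroid genes 2 were expressed, and none passed 10 TPM.

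Of the 5 genes taken as defining markers of the chromaffin cells of the adrenal medulla, 4 had 0 counts and CHGA was expressed. Of 16 chromaffin genes 3 were expressed (CHGB, GATA3 and CHGA), their sum was 59.9 to 62.5 CPM, and TH, DBH, PNMT, PHOX2A and both vesicular monoamine transporter genes SLC18A1 and SLC18A2 had 0 counts. Of 20 neuronal genes 12 were expressed, near the 64.8% of all protein-coding genes. NEFL, the light neurofilament chain, was at 87.2, 81.0 and 84.8 TPM and SYP, a vesicle protein, at 19.3 ± 0.934 TPM. The members RBFOX3, STMN2, ELAVL4, DCX and GAD2 were silent, beside 13.4% of all protein-coding genes. Of 17 muscle genes 5 were expressed, with TNNI2 (53.3 ± 3.05 TPM) and TNNT1 (21.2 ± 0.538 TPM) the highest and MYOD1, MYOG, DES and ACTC1 at 0. Of the 12 fibroblast genes 6 were expressed, none above 18.3 TPM (S100A4), and POSTN was silent. None of 16 pluripotency and germ line genes was expressed.

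**Figure D4:**
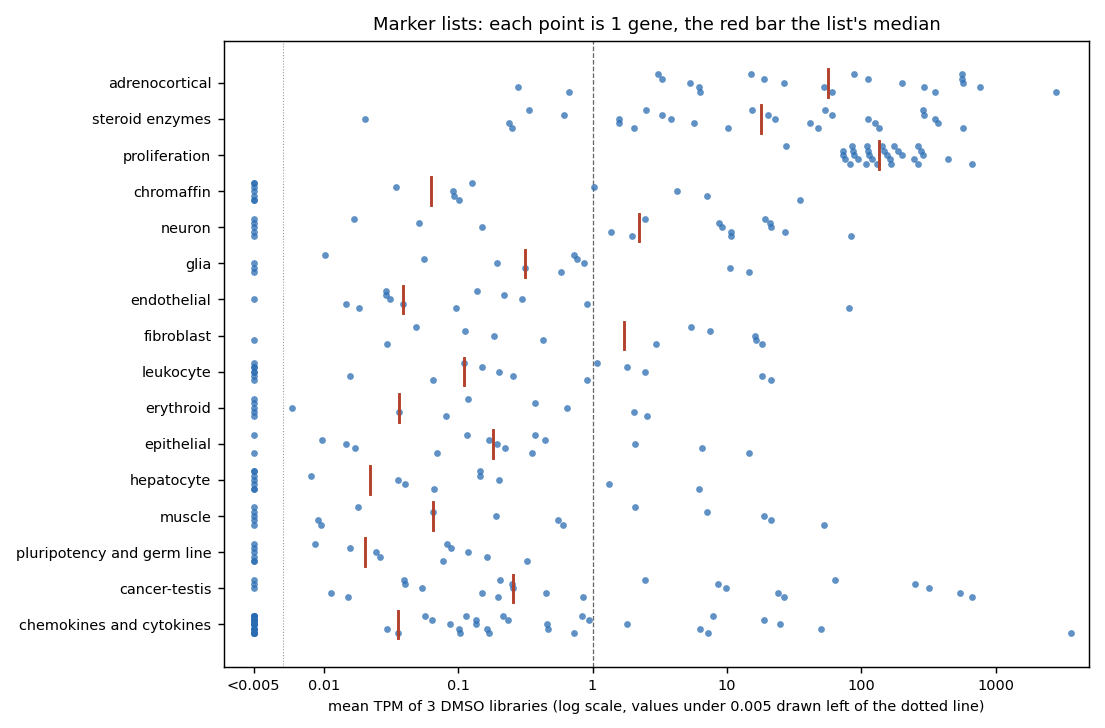
Mean TPM of the 3 DMSO libraries for every member of 16 marker lists on a log axis, 1 point per gene, with a red bar at each list's median. The adrenocortical, steroid and proliferation lists have medians above 10 TPM, and the lists of other cell types have medians below the 7.06 TPM of all protein-coding genes, with a few members above 10 TPM.

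Gene families used in other tissues differed from each other. None of 381 olfactory receptor genes was expressed and 336 (88.2%) had 0 counts. None of 94 keratin-associated protein genes, 39 beta-defensin genes or 13 interferon alpha genes was expressed. Of 27 taste receptor genes 2 were expressed and 9 had 0 counts. Of 55 keratin genes 7 were expressed, with KRT10 the highest at 58.0 TPM, and of 24 claudin genes, which build tight junctions, 5, with CLDN1 at 295.1 TPM. By contrast, 417 of 476 ZNF zinc finger genes and 85 of 88 cytosolic ribosomal protein genes were expressed, the latter with 3.92% ± 0.190 of all counts. Of 55 cytochrome P450 genes 23 were expressed, with CYP21A2 the highest.

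Cancer-testis genes are normally limited to germ cells, and most lie on the X chromosome. Of 25 listed, 10 were expressed, the median was 0.255 TPM, and MAGEB2, CTCFL and PRSS21 were silent, so the median lay below the 7.06 TPM of all protein-coding genes while a few members were high. MAGEA3 was at 663, 669.5 and 676 TPM, MAGEA6 at 522, 551 and 545 TPM, MAGEA12 at 319 ± 10.8 TPM and MAGEC2 at 253 ± 6.80 TPM, in the upper reach of all expressed protein-coding genes, whose median was 21.1 TPM. The MAGEA genes are near-identical copies, so the split between them is uncertain.

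Developmental genes that Polycomb complexes hold silent in many cell types were divided. Of 98, 42 were expressed, 17 were silent and the median was 0.718 TPM. Over all protein-coding genes 64.8% were expressed, 13.4% were silent and the median was 7.06 TPM, so the silent share of the list was not far from that of all. The expressed members of the list were led by TBX3 (327 TPM), MSX1 (93.0 ± 1.39 TPM), TWIST1 (77.6 ± 3.25 TPM), IRX5 (66.8 ± 3.60 TPM), PITX1 (64.7 ± 0.577 TPM) and the heart factor NKX2-5 (38.3 ± 0.624 TPM). Its silent members included PAX3, SOX10, NKX2-1, OTX2 and PHOX2A. Of 39 HOX genes, 30 were expressed. HOXA11 was the highest at 129, 126 and 138 TPM, HOXB7 stood at 79.0 ± 5.51 TPM, HOXA13 at 58.8 ± 2.79 TPM and HOXA5, from the other end of its cluster, at 47.8 ± 1.11 TPM, while HOXB1, HOXD10 and HOXD11 were silent.

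Imprinted genes were unequal within their domains. IGF2 was 847 ± 78.3 times H19, the RNA gene of the opposite parental allele, per length (SD, n = 3), and H19 stood at 2.47, 2.55 and 1.97 TPM. The IGF2 entry took 49.1% of the counts of the annotations that overlap there, so this ratio is uncertain beyond its SD. In the DLK1 domain the maternally expressed RNA MEG3 stood at 76.4, 61.1 and 62.7 TPM, highest in replicate 1, and DLK1 was 42.9 ± 6.01 times MEG3. Of the paternally expressed genes, PEG10 was at 489.5 ± 22.2 TPM, NDN at 266 ± 5.45 TPM, MEST at 145 ± 3.88 TPM and PEG3 at 133 ± 9.14 TPM, and NNAT was silent.

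All 30 proliferation genes were expressed, with a median of 137 TPM. PCNA, the replication clamp, was at 663 ± 22.4 TPM, CCNB1, the mitotic cyclin, at 440.3 ± 17.9 TPM and TOP2A at 286 ± 6.21 TPM. Among genes altered in adrenocortical carcinoma, CDK4 stood at 388 ± 25.5 TPM and CDKN2A, the gene of the inhibitors p16 and p14ARF, at 214 ± 13.6 TPM. RB1, the retinoblastoma gene, was at 15.4 ± 0.186 TPM. G0S2, a gene of lipid storage whose loss of expression marks a group of these tumours, had 0 counts in every library, as did MYCN.

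The 3 libraries were close, and the genes that differed most between them were mainly long and highest in replicate 1. The median coefficient of variation (CV, the SD as a percentage of the mean) of 10954 genes of at least 10 CPM was 4.09%, against 3.08% from counting alone, and 17 genes passed 20%. With replicate 1, 2 or 3 left out, the number passing 20% was 12, 57 or 49, and a CV from 2 libraries is less certain. TTN, the giant muscle protein gene, had the highest CV with 113, 51.9 and 63.5 CPM, and replicate 1 was far above the others. The nuclear RNA NEAT1 was at 58.1, 33.6 and 37.9 CPM and SYNE2, which encodes a giant protein of the nuclear envelope, at 152, 100.3 and 107 CPM, again highest in replicate 1. In all, 107 genes were at least 1.2-fold higher in replicate 1 than in both others, and their median length was 11800 bases against 5197 for all genes of this level. The same count was 18 for replicate 2 and 23 for replicate 3.

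**Figure D5:**
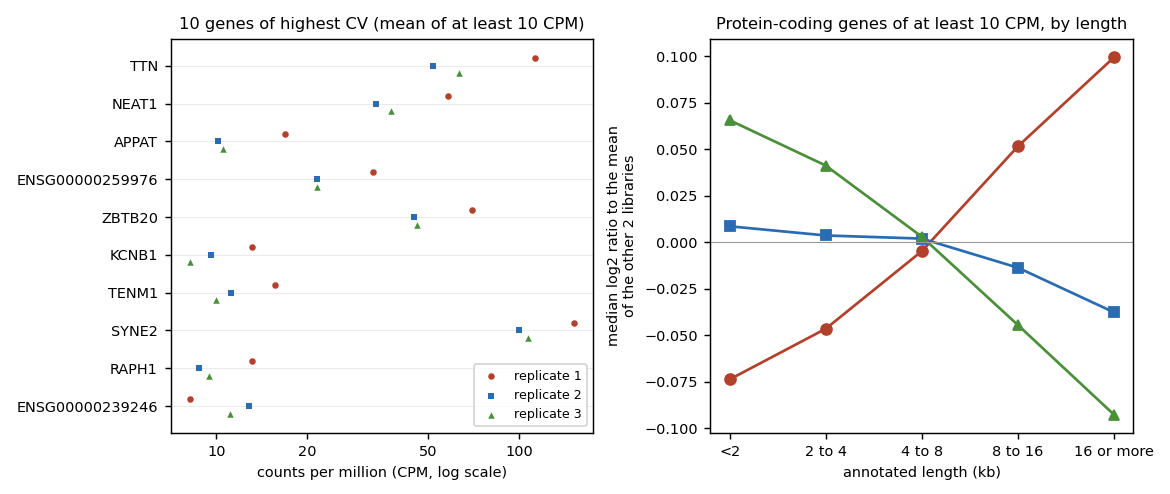
Left: CPM of the 10 genes of highest CV in each DMSO library on a log axis. Right: median log2 ratio of each library to the mean of the other 2 for protein-coding genes of at least 10 CPM, by annotated length; replicate 1 runs from -0.07 to 0.10 and replicate 3 from 0.07 to -0.09 between the shortest and the longest class.

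By length, the median log2 ratio of replicate 1 to the mean of the other two ran from -0.07 for protein-coding genes under 2 kb to 0.10 for those of 16 kb or more. Replicate 3 ran the other way, from 0.07 to -0.09. The share of mitochondrially encoded counts was also highest in replicate 1. RNA quality values were not used here, and the part of RNA length in these differences was not tested.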

How the data were processed

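The series holds RNA-seq of NCI-H295R cells, and the 3 DMSO libraries were taken from the deposited table by name, with 0 columns left unmatched. Per the submitters' processing notes, reads were handled with STAR and featureCounts on hg38. Their versions, the gene annotation used, strandedness and the sharing of multimapping reads were not given in the sources used here. Estimated counts per gene (expected counts) were deposited by the authors, and 65.5% to 66.4% of the non-zero values of a library were whole within 1e-06. Totals were 21.0 to 27.0 megacounts. The table's Length column, deposited by the authors in bases (another unit), was used for TPM. Per the labels, the libraries were made with a polyA kit, so RNA without a tail is under-represented.

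CPM and TPM were computed in Python 3.11.15 with pandas 2.3.3 from the counts as deposited, with no filter. edgeR 4.0.16 in R 4.3.3 gave TMM and RLE factors and a common biological CV of 4.19% over 17701 genes. No test was made, and the computation of levels was tested on simulated data. Symbols were matched for 42000 genes, and gene types and positions came from GENCODE 29 (58542 genes matched). The 41 gene lists held 1202 entries, of which 3 had no match. The members and lists were chosen with earlier results of these data known, so no list is independent evidence of its own level. Promoters came from RefSeq (GRCh38.p14).

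The genes named follow a rule: the 25 highest by each scale, any member of the steroid, adrenal and Wnt lists, of each other list up to 8 of its highest, members of lists of silent genes above 1 TPM, up to 10 genes of highest CV and up to 5 each way whose rank changed most between scales. Silent members and some others (among them RB1, CCND2, CCND3, H19, MEG3, POMC, NEFL, SYP and AMH) were named for what they are known for, after their values were seen. Alternatives were TMM and RLE scaling, rounded counts, each library left out, a total without mitochondrially encoded genes, an effective length, and other thresholds for expressed, silent and variable genes. A few genes of the lists are not reported here by name.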

Additional observations from a re-analysis of the deposited data

How the results depend on the processing

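No result has a test, so a result is said to move where it shifts by more than the SD of 3 libraries or, for a count of genes, by more than 1.5 times. TMM and RLE scaling and rounding moved none of the 31 main values or the levels of 302 named genes for which they were run. The TMM and RLE factors lay between 0.994 and 1.004, so scaling could hardly shift a mean and says little about steadiness. Leaving out a library cannot shift a mean of 3 libraries by more than their SD, so no named gene could move by this rule. That check therefore says nothing about how steady the named levels were. The length and the total used for TPM did move most of them: an effective length (Length minus 200 bases, at least 50) moved 219 of 302 by more than their SD, with a median factor of 0.813, and a total without mitochondrially encoded genes 199 of 289, with a median factor of 1.11. Factors beyond 1.5 were found for 3 genes with the effective length (MT-ATP8, MT-ND4L and ENSG00000240801) and for 0 with the other total. The numbers of expressed and silent genes and of expressed members of the 11 adrenal and Wnt lists stayed within 1.5 times under every threshold and library left out. Without mitochondrially encoded genes in the total, the top 10, 100 and 1000 genes took 3.17%, 12.5% and 42.0% of counts. List medians in TPM rose with that total and fell with the effective length to 19.9 and 14.4 TPM (steroid), 63.5 and 45.4 TPM (cholesterol), 0.126 (effective length only) TPM (hormone receptor), 26.1 and 18.8 TPM (adrenal factor), 21.8 and 15.6 TPM (glomerulosa), 8.78 and 6.74 TPM (Wnt receptor), 7.43 and 5.56 TPM (Wnt inhibitor), 41.8 and 30.1 TPM (Wnt cytoplasmic), 23.1 and 16.5 TPM (Wnt nuclear) and 11.3 and 8.28 TPM (Wnt target). The median of the low hormone receptor list without a library was 0.164 to 0.190 TPM and that of Wnt receptors 8.03 to 8.10 TPM. The number of genes of CV over 20% was 5 at a mean of at least 50 CPM and 12 to 57 with a library left out. Leaving out replicate 1 gave 12 such genes, replicate 2 57 and replicate 3 49; with 2 libraries a CV is less certain. No paired analysis was possible because the labels give the libraries no replicate numbers and a single group was described. Depth limits the silent genes: 0 counts in a single library allow up to 0.111 to 0.143 CPM. The limit for 0 counts in all 3 libraries together is lower and was not computed.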

Other observations

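A few other genes are given as values, chosen after they were seen. Of 14 gonadal genes 6 were expressed. AMH, the anti-Müllerian hormone, was the highest at 36.8 ± 2.60 TPM, the only one of them at 10 TPM or more, and INSL3, FSHR and LHCGR had 0 counts. LDHB was 5.00 ± 0.0697 times LDHA per length (SD, n = 3), and the hexokinase HK1 was 5.64 ± 0.355 times HK2. RORB, an orphan receptor best known from brain and eye, stood at 70.0 ± 5.94 TPM, in the range of NR2F2 and ESRRA.

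Along the chromosomes, the median TPM of expressed protein-coding genes was taken in windows of 20 Mb with at least 30 such genes (143 windows on hg38, median 20.1 TPM). The highest was 88.6 TPM on chromosome 7 at 40 to 60 Mb (53 genes), followed by 50.6 TPM on chromosome 9 at 120 to 140 Mb (222 genes). Copy number was not measured here, and its part in these values was not tested.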
